A study of Mus musculus with 8 samples.

Results

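*Suz12delta* cells at day 5 of directed differentiation to spinal motor neurons (SMNs) were compared with E14 wild-type cells at the same day, with 1 RNA-seq library on each side. Genes were taken as members when GENCODE vM1 annotates them as protein-coding, when they reached 1 FPKM in either library and when both libraries listed them above 0. FPKM counts the fragments of a gene per unit of its length and relative to all fragments that mapped in that library. These criteria gave 12985 members of the 36808 genes in the table. A further 269 protein-coding genes reached 1 FPKM in 1 library and were listed at 0 in the other, and 9050 were under 1 FPKM in both. The member nearest to the limit, *Zfp354b*, was at 1.002 FPKM in its higher library, and the nearest gene outside, *Hist2h2bb*, was at 0.9994 FPKM. Of the members, 10981 were at 1 FPKM or more in both libraries, 1571 only in *Suz12delta* and 433 only in wild-type cells.

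The wild-type cells were E14, a mouse ESC line of 129/Ola background with intact PRC2. The *Suz12delta* line is of C57/BL6 background and carries a truncation of *Suz12*, so genotype, strain and line cannot be told apart in this comparison. All ESCs were grown with LIF on irradiated mouse embryonic fibroblasts (MEFs), which were removed by brief plating, and were then differentiated by withdrawing LIF and adding retinoic acid and a Hedgehog agonist. Other libraries of the series, each again the only one of its condition, were used for side by side values: E14, CJ7 (129/S), *Suz12delta* and *Eednull* (BALB/cR1, a point mutation of *Eed*) ESCs, and *Suz12GT* (129/Ola, a gene trap that makes a truncated SUZ12 fusion protein) and *Eednull* cells at day 5. The *Suz12GT* and *Eednull* day 5 cells would be set against the same wild-type day 5 library, so their values are given without overlaps or correlations. No difference has a replicate check, and no p-value is given.

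Polycomb Repressive Complex 2 (PRC2) is the enzyme complex that places methyl groups on lysine 27 of histone H3, a mark of silent developmental genes. SUZ12 holds the complex together, EED binds the mark and EZH2 or EZH1 carries the catalytic domain. During SMN differentiation, retinoic acid gives ESC-derived neural cells a caudal identity, and Hedgehog signalling gives them the ventral identity of progenitors that express *Olig2*. These progenitors leave the cell cycle as neurons that express *Isl1*, *Mnx1* and *Lhx3*.

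The mutated gene was checked first. At day 5, *Suz12* had 16.2 FPKM in the wild-type and 11.6 FPKM in the *Suz12delta* library. In ESCs it had 41.3 FPKM in E14, 53.1 in CJ7, 6.21 in *Suz12delta* and 35.7 in *Eednull* cells, and at day 5 it was at 10.3 in *Suz12GT* and 17.6 in *Eednull* cells. A value for the whole gene does not show whether a transcript is truncated, and at day 5 the *Suz12delta* value lay between those of *Suz12GT* and wild-type cells. As values of the whole series, FPKM summed to between 389165 and 797748 per library, with 487929 in wild-type and 460746 in *Suz12delta* day 5 cells. The table holds no read counts, so depth is unknown. Y-linked genes differed between the lines, with *Eif2s3y* at 28.4 FPKM in wild-type day 5, 0.714 in *Suz12delta* day 5 and 12.3 in *Suz12delta* ESCs. All 3 Y-linked members, *Uty*, *Eif2s3y* and *Ddx3y*, were past 2-fold lower at day 5, and the part of this difference in other results was not tested.

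The comparison asked which lineages and functions were higher or lower without full PRC2 after SMN differentiation. Ratios are *Suz12delta* over wild-type, as log2 of FPKM plus 0.1, a scale on which differences of low genes come out too small. Over all members the median log2 ratio was 0.23, and 9321 members (71.8%) lay within 2-fold. At least 2-fold higher in *Suz12delta* cells were 2697 members, which is 20.8% of all members, and at least 2-fold lower were 967, which is 7.45%. Past 4-fold these were 1460 (11.2%) and 395 (3.04%). Genes that are low in wild-type cells and passed the limit through *Suz12delta* alone had to differ, so the counts were also taken over the 10981 members at 1 FPKM or more in both libraries. There, 1235 were past 2-fold higher and 623 past 2-fold lower, with a median of 0.16. With a minimum of 5 FPKM in either library, 1401 members were past 2-fold higher. In bulk RNA, fewer cells of a type and less RNA per cell cannot be told apart, and this holds for every group below.

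**Figure D1:**
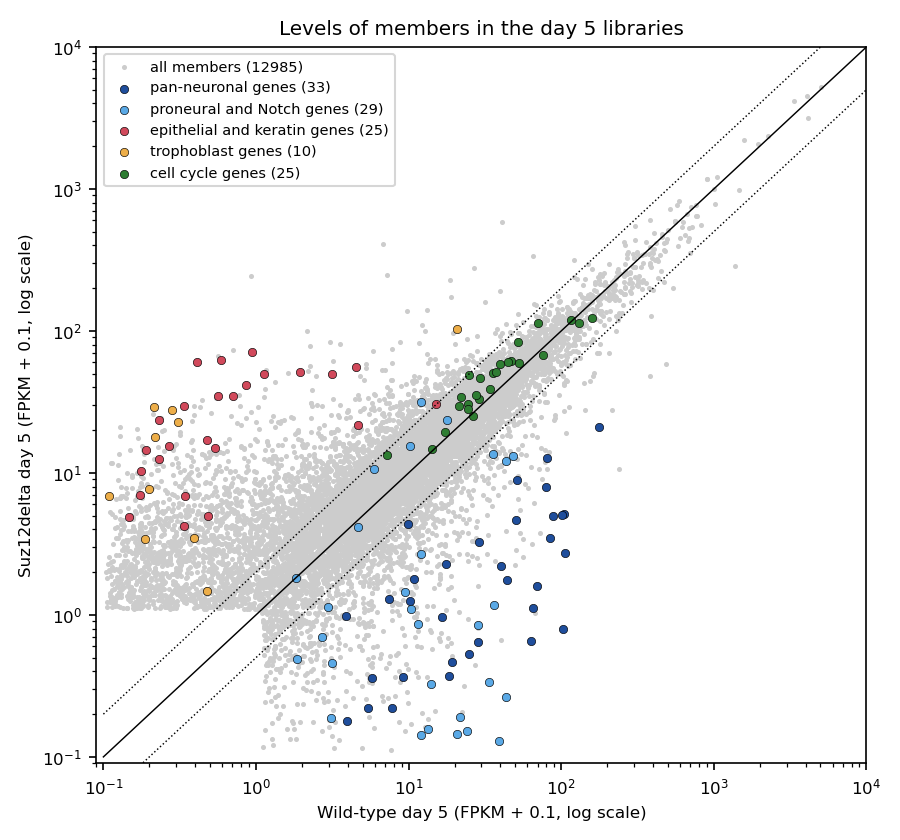
FPKM plus 0.1 of the 12985 members in wild-type (horizontal, log scale) and *Suz12delta* (vertical, log scale) day 5 cells, 1 library each, with 5 gene lists in colour, a solid line of equality and dotted lines at 2-fold. All 33 pan-neuronal members lie below the lower dotted line, all 25 epithelial and 10 trophoblast members lie above the upper one, and all 25 cell cycle members lie between them. Of the pan-neuronal, epithelial and trophoblast members, 20, 6 and 1 were at 1 FPKM or more in both libraries. The others passed the limit through 1 library alone, which fixed their direction.

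The lowest ratios belonged to genes of neurogenesis. *Myt1*, a zinc finger factor of differentiating neurons on chromosome 2 from 181498037 to 181562502, was at 39.2 FPKM in wild-type and 0.0303 in *Suz12delta* cells, a log2 ratio of -8.24. It was at 41.95 FPKM in *Suz12GT* and 0.178 in *Eednull* day 5 cells, and at 0, 0.0370, 0.0451 and 0.0865 FPKM in E14, CJ7, *Suz12delta* and *Eednull* ESCs. The 12 members with the lowest ratios among those at 10 FPKM or more in the higher library were *Myt1*, *Hes5*, *Neurod4*, *Neurog2*, *Elavl4*, *Nhlh2*, *Olig2*, *Dll3*, *Dcx*, *Nhlh1*, *Neurog1* and *Grm2*. Their ratios ran from -8.24 to -6.29. Apart from *Grm2*, a glutamate receptor gene, each encodes a neural transcription factor, a Notch pathway component or a neuronal RNA-binding or cytoskeletal protein.

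The highest ratios were of mixed kind. *Clu*, which encodes the secreted chaperone clusterin and lies on chromosome 14 from 66587320 to 66600385, was at 0.829 FPKM in wild-type and 245 in *Suz12delta* cells, a ratio of 8.04. The next 11 were *Xlr5a*, *Cldn7*, *Xlr5b*, *Rhox9*, *Cxcl15*, *Tex13*, *Plagl1*, *Gm53*, *Krt19*, *Adh1* and *Wfdc2*, with ratios from 7.35 to 6.71. *Cldn7* encodes a tight junction protein and *Krt19* a keratin of simple epithelia. *Xlr5a*, *Xlr5b*, *Rhox9* and *Tex13* are X-linked genes of families that are known from testis, ovary or placenta, and *Plagl1* is an imprinted zinc finger gene. *Adh1* encodes an alcohol dehydrogenase that can oxidise retinol.

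Bases before the gene start are shown for 5 of the genes that the results turn on, since CG pairs are the sequence feature that sets apart the promoters PRC2 is known for. *Gata3* is a developmental regulator and *Cldn7* an epithelial gene, and both were higher in *Suz12delta* cells, while *Olig2*, *Neurog2* and *Hes5* were lower. Each run is the 250 bases before the GENCODE vM1 start on NCBI build 37, on the gene's own strand, with every CG in capitals. They lie at chr2:9811662-9811911 (-) for *Gata3*, chr11:69778031-69778280 (+) for *Cldn7*, chr16:91225545-91225794 (+) for *Olig2*, chr3:127335804-127336053 (+) for *Neurog2* and chr4:154334782-154335031 (+) for *Hes5*.
Gata3: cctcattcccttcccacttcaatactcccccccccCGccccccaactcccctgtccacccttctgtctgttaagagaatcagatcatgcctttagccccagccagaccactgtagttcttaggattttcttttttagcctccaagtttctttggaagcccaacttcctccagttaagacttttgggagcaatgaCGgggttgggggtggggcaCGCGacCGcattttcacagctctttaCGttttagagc
Cldn7: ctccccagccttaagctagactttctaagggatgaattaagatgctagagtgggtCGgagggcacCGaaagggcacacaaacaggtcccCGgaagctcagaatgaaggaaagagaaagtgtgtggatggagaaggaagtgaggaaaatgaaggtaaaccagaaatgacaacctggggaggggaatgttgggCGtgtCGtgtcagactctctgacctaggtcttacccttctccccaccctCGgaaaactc
Olig2: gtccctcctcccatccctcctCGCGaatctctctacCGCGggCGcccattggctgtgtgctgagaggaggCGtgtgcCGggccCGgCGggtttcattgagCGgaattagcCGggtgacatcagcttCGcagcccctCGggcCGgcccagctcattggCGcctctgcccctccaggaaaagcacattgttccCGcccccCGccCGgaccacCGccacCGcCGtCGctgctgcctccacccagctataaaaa
Neurog2: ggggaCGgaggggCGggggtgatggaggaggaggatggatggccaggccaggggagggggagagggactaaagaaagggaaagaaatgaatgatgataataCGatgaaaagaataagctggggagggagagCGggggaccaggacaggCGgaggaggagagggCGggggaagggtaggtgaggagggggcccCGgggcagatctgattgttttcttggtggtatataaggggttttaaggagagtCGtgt
Hes5: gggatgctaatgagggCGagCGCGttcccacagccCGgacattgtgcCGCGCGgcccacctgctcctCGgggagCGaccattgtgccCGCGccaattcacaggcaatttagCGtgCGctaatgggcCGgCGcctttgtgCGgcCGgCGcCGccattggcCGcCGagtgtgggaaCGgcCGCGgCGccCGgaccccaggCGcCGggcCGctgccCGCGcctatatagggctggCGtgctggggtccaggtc

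These 5 windows hold 6 CG pairs in *Gata3*, 6 in *Cldn7*, 22 in *Olig2*, 8 in *Neurog2* and 32 in *Hes5*. The densest window shown was thus that of *Hes5*. Each window lies before the outermost annotated start of its gene, which need not be its main promoter, *Gata3* included. Over 12620 members with sequence (97.2%), the median ratio of observed to expected CG pairs was 0.704. It was 0.512 in the 1425 members past 4-fold higher and 0.580 in the 379 past 4-fold lower. Both sets were thus below the members as a whole, but not below the 0.494 of all 21770 protein-coding genes searched. A ratio of 0.6 or more was found in 63.0% of all members, 39.0% of those past 4-fold higher and 48.0% of those past 4-fold lower. Among all protein-coding genes searched it was found in 41.8%. The motif TATAAA, searched on both strands, was in 10.5%, 9.23% and 7.07% of the windows of the higher, the lower and all members, and in 12.4% of those of all 21770 protein-coding genes searched. Its forward and reverse forms can overlap. A window was counted once, and of the 5 shown *Olig2* holds it. A RefSeq promoter table matched only 69.3% of member symbols, and values from it are not read here.

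Genes of neurons had the lowest median of the lists apart from the Y-linked list, whose 3 members had a median of -5.13. The gene lists were drawn up from textbook markers and pathways, with earlier results of these data known, so their counts are no independent evidence. Some genes stand in several lists, such as *Gata2*, *Gata3*, *Tal1*, *Cdx2*, *Kdr*, *Gsc*, *Foxa2* and *Nkx2-2*. Of 33 pan-neuronal members, 33 were past 2-fold lower and 31 past 4-fold, with a median log2 ratio of -4.34 beside 0.23 over all members, or -3.21 with a pseudocount of 1. At 1 FPKM or more in both libraries, 20 of 20 members were past 2-fold lower. *Elavl4*, which encodes a neuronal RNA-binding protein, was at 102 FPKM in wild-type and 0.700 in *Suz12delta* cells. *Dcx*, a microtubule-binding protein of migrating neurons, was at 63.7 and 0.554 FPKM. *Nefl*, a neurofilament subunit, was at 106 and 2.64 FPKM. In *Eednull* day 5 cells the same 3 genes were at 0.778, 0.928 and 2.29 FPKM, and in *Suz12GT* cells at 116, 101 and 261 FPKM. The summed level of the list was 1538 FPKM in wild-type and 102 in *Suz12delta* day 5 cells, below its 179 in E14 ESCs and 138 in *Suz12delta* ESCs. The ratio nearest to 0 was that of *Onecut2*, a factor of motor neurons and interneurons, at 9.87 and 4.26 FPKM.

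Proneural factors start neurogenesis and switch on the Notch ligands that hold neighbouring cells back. Of 29 members of the proneural and Notch list, 23 were past 2-fold lower, 1 past 2-fold higher and 5 within 2-fold, with a median of -2.77, or -1.89 with a pseudocount of 1. At 1 FPKM or more in both libraries, 7 of 13 were past 2-fold lower. *Neurog2*, a proneural factor of motor neuron progenitors, was at 20.7 FPKM in wild-type and 0.0450 in *Suz12delta* cells. *Neurod4*, which acts after it, was at 24.1 and 0.0525 FPKM. Both were thus under 0.1 FPKM in *Suz12delta* cells. The Notch ligand genes *Dll3* and *Dll1* were at 33.4 and 28.3 FPKM in wild-type and at 0.235 and 0.745 in *Suz12delta* cells, whereas the ligand genes *Jag1* and *Jag2* differed by 0.01 and -0.15 on the log2 scale. Of the receptors, *Notch1* was at 48.01 and 13.02 FPKM, while *Notch2* and *Notch3* had ratios of 0.85 and 0.59. The HES repressors went in opposite directions: *Hes5* was at 43.2 and 0.163 FPKM and *Hes1*, the 1 member past 2-fold higher, at 11.999 and 31.4 FPKM.

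The factors that mark dorsoventral domains of the neural tube had 13 members, of which 10 were past 2-fold lower and 3 past 2-fold higher. Only 5 of them were at 1 FPKM or more in both libraries, with 4 lower and 1 higher. The others became members through 1 library alone, which fixed their direction. *Olig2*, which marks motor neuron progenitors, was at 22.1 FPKM in wild-type and 0.107 in *Suz12delta* cells, and at 10.5 in *Suz12GT* and 0.0455 in *Eednull* cells. Its level in *Suz12delta* cells was below that of *Suz12delta* ESCs, at 1.12 FPKM. *Nkx6-1*, a ventral factor upstream of it, was at 13.9 and 1.90 FPKM, and *Nkx2-2*, of the domain next to the floor plate, at 4.46 and 0.242. *Pax6*, expressed over much of the neural tube, was lower by less, at 21.9 and 7.24 FPKM. The 3 higher members were *Foxa2* (from 2.96 to 11.97 FPKM), *Msx1* (0.176 to 4.56) and *Msx2* (0.0103 to 1.95). *Foxa2* marks the floor plate and also endoderm, and the *Msx* genes mark the roof plate and also other tissues that receive BMP signals. The remaining 9 genes of this list were under 1 FPKM in both libraries.

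SMN markers were lower, yet several stayed above their ESC levels. Of 17 members of the motor neuron list, 13 were past 2-fold lower and 1 past 2-fold higher, with a median of -1.75. Among the 11 at 1 FPKM or more in both libraries, 8 were lower and none higher. *Isl1* was at 18.1 FPKM in wild-type and 5.32 in *Suz12delta* cells, *Mnx1* (also called *Hb9*) at 16.7 and 2.63, and *Lhx3* at 25.8 and 2.52. These 3 factors together define motor neurons, and in E14 ESCs they were between 0.101 and 0.220 FPKM. Bulk RNA does not show whether the same cells expressed all 3. *Chat*, the enzyme that makes acetylcholine, was at 7.61 and 0.0127 FPKM, and *Lhx4* at 9.41 and 0.0524. *Chat* and *Lhx4* were thus near 0 in *Suz12delta* cells, so the label of an SMN differentiation rests on fewer of its markers there. *Foxp1*, of limb-innervating motor neurons, was within 2-fold with a ratio of 0.71, and *Tbx20*, known from visceral motor neurons and the heart, was the 1 higher member with 2.38. Of the 5 genes the study followed by qPCR (*Pou5f1*, *Pax6*, *Olig2*, *Isl1* and *Mnx1*), *Pou5f1* was past 2-fold higher and 4 were past 2-fold lower. The study chose these 5 for this differentiation, so they are no independent evidence of a direction.

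Broad neural progenitor genes were divided. Of 16 members, 9 were past 2-fold lower and 4 past 2-fold higher. Among the 11 at 1 FPKM or more in both libraries, 6 were lower and 2 higher. *Sox2*, a factor of neural progenitors and ESCs, was at 20.7 FPKM in wild-type, 3.70 in *Suz12delta* and 67.1 in E14 ESCs. *Sox3* was at 17.4 and 0.977 FPKM and *Fabp7*, a fatty acid-binding protein of radial glia, at 27.3 and 0.345. *Nes*, an intermediate filament gene of progenitors, was within 2-fold at 24.8 and 14.7 FPKM. In the other direction, *Zic1* was at 0.203 and 6.67 FPKM and *Ptn* at 3.32 and 20.1. The axon guidance list showed no common direction, with 8 of 25 members past 2-fold higher and 8 past 2-fold lower, or 5 lower with a pseudocount of 1. Among the 19 at 1 FPKM or more in both libraries, 7 were higher and 3 lower. *Slit1* was at 15.8 and 0.591 FPKM, whereas the semaphorin gene *Sema3c*, which also acts in heart and vessels, was at 4.33 and 32.96.

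The spinal interneuron list had only 9 members, of which 7 were past 2-fold higher and 1 lower, with a median of 3.17. The median was 1.64 with a pseudocount of 1 and 1.02 over the 21 genes above 0 in both libraries, and only 3 members were at 1 FPKM or more in both, of which 1 was higher and 1 lower. *Gata3* was at 0.118 and 17.8 FPKM, *Gata2* at 0.131 and 11.7, *Tal1* at 0.143 and 2.12 and *Pax2* at 0.555 and 5.78. These genes are not particular to interneurons: *Gata2* and *Tal1* also act in blood, *Gata3* in trophoblast and epithelia, and *Pax2* in the kidney. *Prdm8*, the member lower in *Suz12delta* cells, was at 19.9 and 1.18 FPKM. The other 19 genes of the list, among them *Evx1*, *En1* and *Lbx1*, were under 1 FPKM in both libraries.

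**Figure D2:**
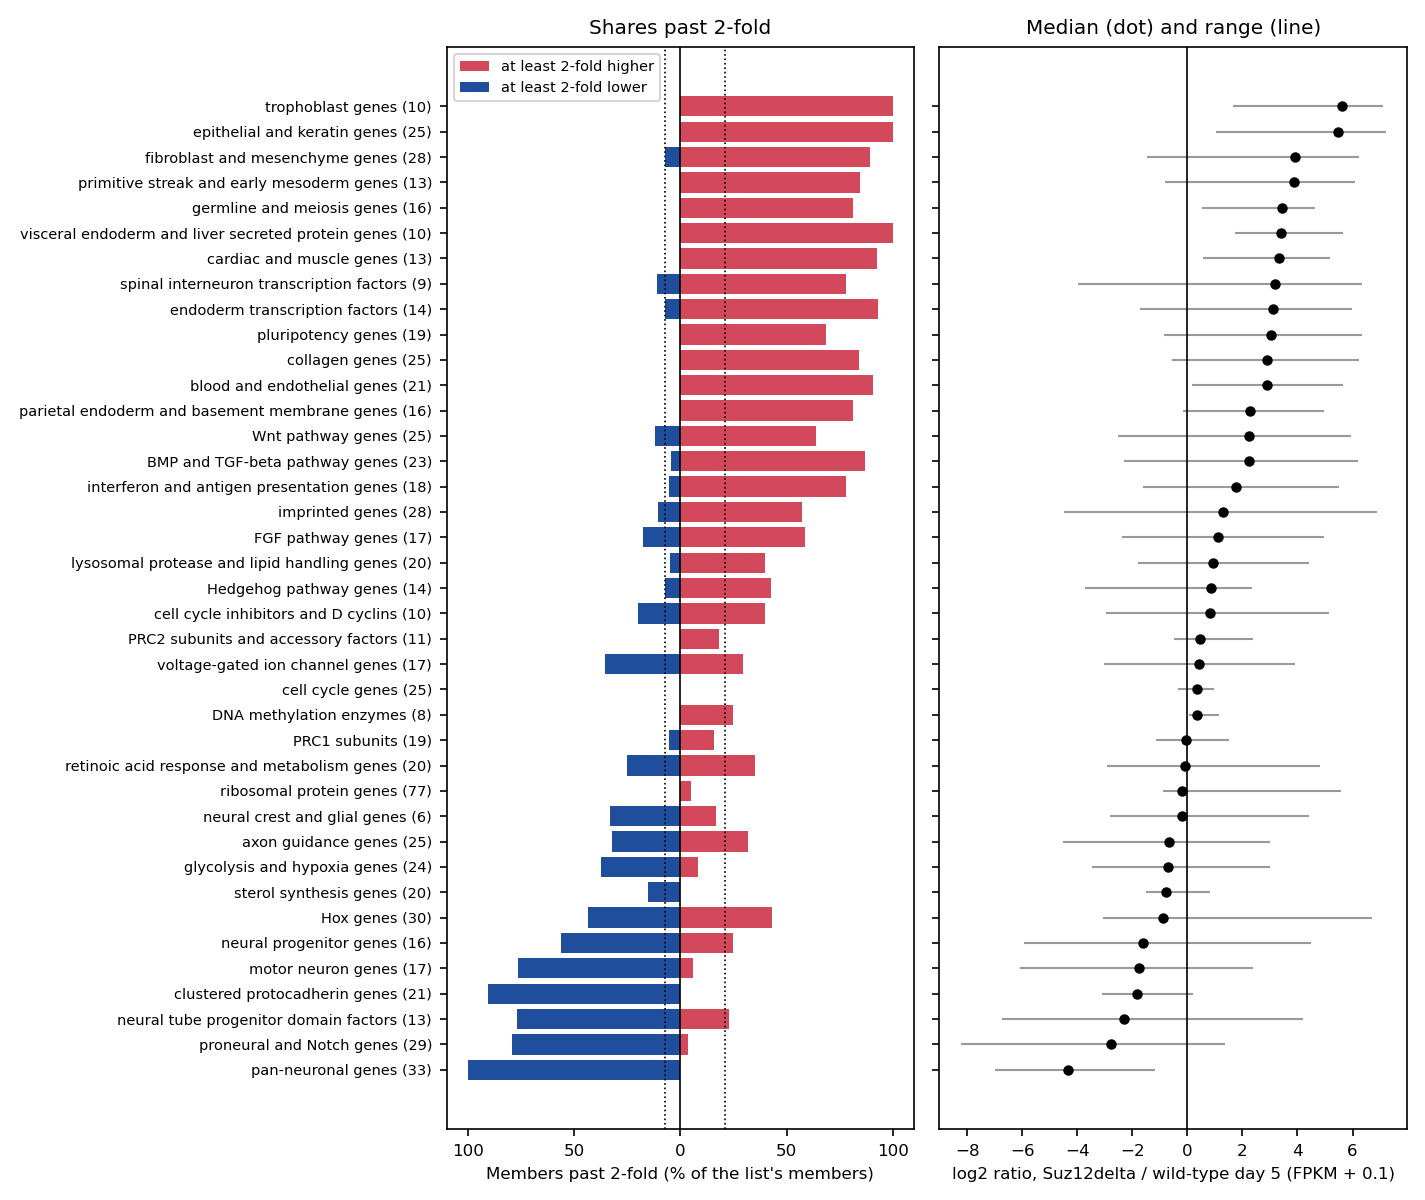
Left, the percentage of each list's members (number in brackets) at least 2-fold higher (red) or lower (blue) in *Suz12delta* than in wild-type day 5 cells, with dotted lines at the 20.8% and 7.45% of all members. Right, the median (dot) and range (line) of the log2 ratio per list, running from -4.34 in pan-neuronal to 5.61 in trophoblast genes. The Y-linked list and the qPCR genes are not drawn.

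Retinoic acid and Hedgehog signals induce the differentiation. Genes of the retinoic acid list showed no common direction, while those of the Hedgehog list were more often higher than lower. Some known targets, named after their values were seen, were within 2-fold. *Rarb*, a receptor gene that retinoic acid induces, was at 22.7 FPKM in wild-type and 19.5 in *Suz12delta* cells, against 0.445 and 0.758 in the ESCs of each line. *Cyp26b1*, which encodes an enzyme that degrades retinoic acid, was at 61.8 and 76.3 FPKM at day 5, against 0.564 and 1.48 in ESCs. *Meis1* was at 65.2 and 47.97 FPKM. These 3 genes differed by less than 2-fold at day 5 and were each far above their ESC values in both lines. *Ptch1*, the Hedgehog receptor gene and a target of the pathway, was at 68.9 and 72.8 FPKM, and *Gli1*, another target, at 10.6 and 15.7.

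Other members, targets of retinoic acid among them, differed by more. Of 20 members of the retinoic acid list, 7 were past 2-fold higher and 5 lower, with a median of -0.09. Among the 17 at 1 FPKM or more in both libraries, 5 were higher and 4 lower. Among the lower were the binding protein genes *Crabp1* (80.95 and 10.6 FPKM) and *Crabp2* (104 and 27.4), the receptor gene *Rxrg* (3.44 and 0.404) and the orphan receptor gene *Nr2f1* (163 and 50.7). Higher were *Aldh1a2*, which makes retinoic acid in the embryo's mesoderm, at 0.935 and 29.1 FPKM, *Dhrs3* at 13.1 and 141 and *Stra6*, a retinol transporter, at 8.62 and 83.7. Of 14 Hedgehog members, 6 were past 2-fold higher and 1, *Nkx2-2*, lower, with a median of 0.85 and 7 within 2-fold. Among the 13 at 1 FPKM or more in both libraries, 6 were higher and none lower. *Shh*, the ligand gene, was at 1.71 and 9.06 FPKM and *Gli3*, which can act as a repressor of targets, at 2.79 and 11.3.

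*Hox* genes differed by their place in the clusters, in which genes from 3′ to 5′ are used from the hindbrain to the tail. The 18 genes of paralog groups 1 to 6 were all members, and 11 were past 2-fold lower and 3 higher. Their summed level was 467 FPKM in wild-type and 140 in *Suz12delta* cells, while it was 8.25 and 9.18 FPKM in the ESCs of the same lines. *Hoxb5* was at 51.8 and 6.41 FPKM and *Hoxd3* at 75.3 and 8.99. Anterior *Hox* genes were thus above ESC levels in both lines at day 5 and lower in *Suz12delta* cells.

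Posterior *Hox* genes were the reverse. Among the 12 genes of paralog groups 10 to 13, all were at 0.0586 FPKM or less in wild-type cells and ran from 0.146 to 10.5 FPKM in *Suz12delta* cells. With such wild-type values, a gene could pass the limit of 1 FPKM only through *Suz12delta* cells: 10 did, of which 4 are members and 6 were listed at 0 in wild-type cells. Of the other 2, *Hoxd12* was also listed at 0 there. The summed level of the 12 genes was 0.156 FPKM in wild-type and 37.1 in *Suz12delta* day 5 cells, and 2.26 and 17.1 FPKM in the ESCs of the same lines. *Hoxa10*, 1 of those listed at 0, was at 10.5 FPKM in *Suz12delta* and 12.2 in *Eednull* day 5 cells. *Hoxd13* was at 0.0426 and 7.11 FPKM. Of the 8 members in groups 7 to 9, 6 were past 2-fold higher and 2, *Hoxb7* and *Hoxb8*, lower. *Hoxc8* was at 0.0138 and 11.7 FPKM, and *Hoxb8*, its paralog, at 91.2 and 25.6. Within the *Hoxb* cluster, *Hoxb8* was the last gene that was lower, and *Hoxb9* was at 3.32 and 9.53 FPKM. *Cdx2*, a regulator of posterior *Hox* genes that also marks trophoblast and intestine, was at 0.00927 and 6.77 FPKM.

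**Figure D3:**
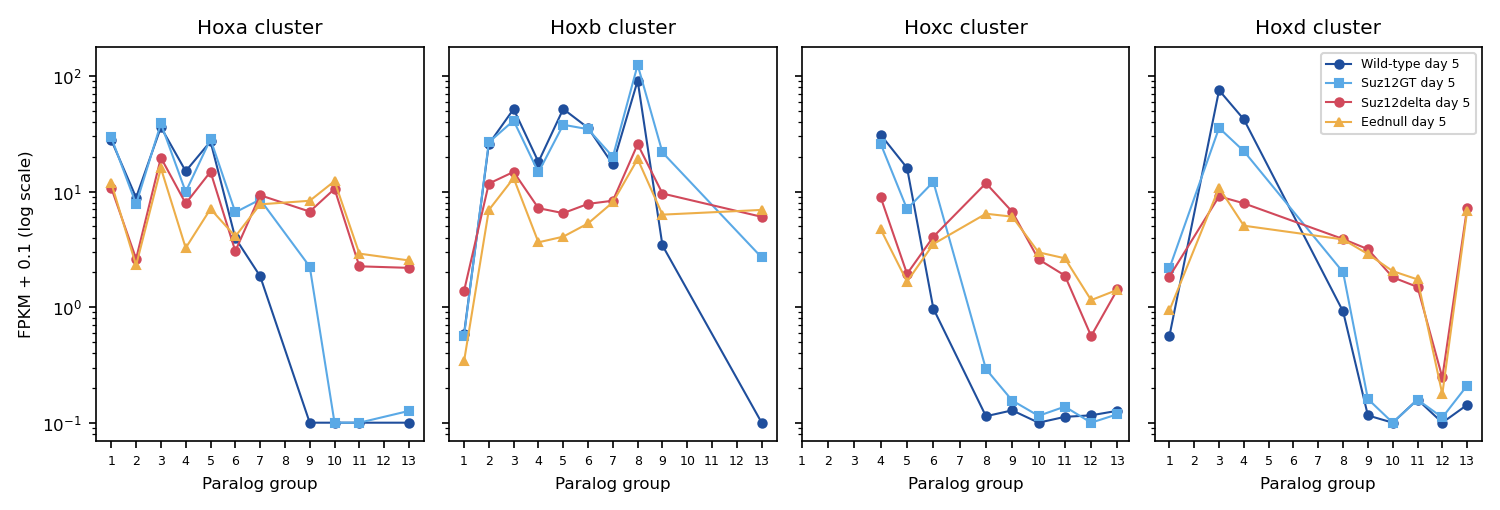
FPKM plus 0.1 (log scale) of *Hox* genes by paralog group in the 4 clusters at day 5, 1 library per line. Wild-type values beyond group 9 lie at the bottom of each panel, while *Suz12delta* and *Eednull* values run below wild-type in most anterior groups and above it in groups 10 to 13.

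Many genes of the lineage lists that follow were under 1 FPKM in wild-type cells and became members through *Suz12delta* cells, so that they had to be higher, and the count at 1 FPKM or more in both libraries is given beside the count of members. All 25 members of the epithelial and keratin list were past 2-fold higher and 24 past 4-fold, with a median of 5.46, or 3.70 with a pseudocount of 1. At 1 FPKM or more in both libraries, 6 of 6 were past 2-fold higher, and 4 genes of the list were under 1 FPKM in both. In E14 ESCs the list summed to 372 FPKM, against 36.2 in wild-type day 5, 732 in *Suz12delta* day 5 and 1136 in *Suz12delta* ESCs. Whether remaining MEFs had a part in these sums was not tested. *Krt8*, *Krt18* and *Krt19* encode keratins of simple epithelia. They were at 0.845, 1.83 and 0.490 FPKM in wild-type and at 71.5, 51.6 and 61.9 in *Suz12delta* cells. *Cdh1*, the gene of E-cadherin, was at 0.608 and 34.6 FPKM, and *Cldn7* at 0.311 and 60.6. ESCs are themselves epithelial, and in E14 ESCs *Cdh1* was at 46.8 and *Cldn7* at 13.7 FPKM, so *Cdh1* in *Suz12delta* day 5 cells was nearer to ESCs than to wild-type day 5 cells. *Krt8* was at 9.78 FPKM in E14 and 59.6 in *Suz12delta* ESCs. In *Eednull* day 5 cells *Krt8*, *Cdh1* and *Cldn7* were at 53.1, 35.7 and 79.1 FPKM, and in *Suz12GT* cells at 6.42, 3.96 and 2.29 FPKM. *Cdh2*, the N-cadherin of neural tissue, was at 40.9 FPKM in wild-type and 14.96 in *Suz12delta* cells.

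Trophoblast, the lineage of the placenta, had 10 members, all past 2-fold higher, of which 1, *Peg10*, was at 1 FPKM or more in both libraries. *Rhox6* and *Rhox9* were at 0.208 and 0.113 FPKM in wild-type, 22.8 and 29.01 in *Suz12delta* and 3.97 and 3.22 in *Eednull* day 5 cells. Reads of such near-identical *Rhox* copies may be shared between them. *Krt7* was at 0.181 and 27.8 FPKM. *Esx1*, a placental homeobox gene, was at 0.1004 and 7.55 FPKM, and *Elf5*, a trophoblast stem cell factor, was listed at 0 in wild-type cells and at 3.21 in *Suz12delta* cells. *Cdx2* and *Gata3* are counted here too, and 5 further genes of the list were under 1 FPKM in both libraries.

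Endoderm factors had 14 members, of which 13 were past 2-fold higher and 1, *Prox1*, lower. At 1 FPKM or more in both libraries, 2 of 3 were higher. *Gata6* was at 0.653 and 5.82 FPKM, *Sox17* at 0.0389 and 1.89 and *Foxa1* at 0.711 and 7.42. *Gata4*, listed at 0 in wild-type cells, was at 10.3 FPKM in *Suz12delta* and 11.6 in *Suz12GT* cells. All 10 members of the visceral endoderm and liver list were past 2-fold higher, 3 of them at 1 FPKM or more in both libraries. *Apoa1* and *Ttr*, which encode secreted carriers of lipid and thyroid hormone, were at 0.0536 and 0.0348 FPKM in wild-type and at 7.68 and 4.24 in *Suz12delta* cells. *Afp*, the fetal albumin-like protein, was listed at 0 in wild-type and at 7.15 FPKM in *Suz12delta* cells. *Apoe*, the highest of the list, was at 4.55 and 35.2 FPKM. Of 16 basement membrane and parietal endoderm members, 13 were past 2-fold higher, and 11 of 14 at 1 FPKM or more in both libraries, such as *Sparc* at 18.8 and 173 FPKM and *Lamb1* at 1.52 and 50.5. This list summed to 434 FPKM in E14 and 852 in *Suz12delta* ESCs, and to 182 and 666 at day 5. Whether remaining MEFs had a part in these sums was not tested.

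Mesoderm genes were mostly higher. Of 13 members of the streak and early mesoderm list, 11 were past 2-fold higher and none lower, but only 1 member, *Tcf15*, was at 1 FPKM or more in both libraries. *Wt1* and *Osr1*, which act in the kidney, gonad and body cavity linings, were at 0.327 and 0.127 FPKM in wild-type and at 28.8 and 15.2 in *Suz12delta* cells. *Tcf21*, placed in the endoderm list here but known from the mesoderm of kidney, lung and epicardium, was at 0.0666 and 9.96 FPKM, and *Tbx18*, of the epicardium, at 0.00611 and 1.72. *Tcf21* was listed at 0 in both E14 and *Suz12delta* ESCs. In *Eednull* day 5 cells *Wt1*, *Osr1* and *Tcf21* were at 36.3, 11.8 and 8.39 FPKM, and in *Suz12GT* cells at 1.38, 0.410 and 0.0866. *Tcf15*, a somite factor, was within 2-fold at 1.92 and 1.05 FPKM.

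Of 13 cardiac and muscle members, 12 were past 2-fold higher, and 5 of 6 at 1 FPKM or more in both libraries. The highest were smooth muscle and cytoskeletal genes, with *Tpm1* at 39.7 and 190.1 FPKM, *Myl9* at 2.95 and 83.1 and *Tagln* at 2.24 and 38.1. The list summed to 267 FPKM in E14 and 797 in *Suz12delta* ESCs, and to 64.9 and 440 at day 5. The part of remaining MEFs in these sums was not tested. *Nkx2-5*, the cardiac homeobox gene, was at 0.0177 and 1.42 FPKM. Blood and endothelial genes had 21 members, of which 19 were past 2-fold higher, and 2 of 3 at 1 FPKM or more in both libraries. *Kdr*, a receptor for vascular growth factor, was at 0.235 and 8.45 FPKM, *Etv2*, which specifies blood and vessel precursors, at 0.0448 and 3.27 and *Cdh5*, the cadherin of endothelium, at 0.0317 and 2.11. The embryonic globin gene *Hba-x* was at 2.21 and 4.59 FPKM. Globin copies share sequence, and their values are uncertain for that reason.

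Fibroblast and mesenchyme genes had 28 members, of which 25 were past 2-fold higher and 2, *Vim* and *Zeb1*, lower. At 1 FPKM or more in both libraries, 5 of 7 were higher. *Col1a1* was at 0.290 FPKM in wild-type and 25.4 in *Suz12delta* day 5 cells, and at 27.9 and 148 in E14 and *Suz12delta* ESCs. *Col3a1* was at 0.292 and 29.6 FPKM at day 5, and *Postn*, a matrix protein, at 0.0424 and 9.94. MEFs express these genes, and the *Suz12delta* ESC library had the highest summed level of the list. Without *Vim*, which neural progenitors express as well, that sum was 1868 FPKM in *Suz12delta* ESCs, 410 in E14 ESCs, 69.8 in wild-type day 5 and 367 in *Suz12delta* day 5 cells. At day 5 *Fap*, *Lum*, *S100a4* and *Prrx1* were listed at 0 in wild-type and lay between 1.09 and 3.69 FPKM in *Suz12delta* cells. The part of remaining MEFs in these differences was not tested. Of 25 collagen members, 21 were past 2-fold higher and none lower, and 7 of 10 at 1 FPKM or more in both libraries, with *Col4a1*, a basement membrane collagen gene, at 7.67 and 34.5 FPKM.

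Of 3 signalling lists, BMP and TGF-beta genes were mostly higher. Wnt and FGF genes were divided among the members at 1 FPKM or more in both libraries. Of 23 BMP and TGF-beta members, 20 were past 2-fold higher and 1, *Id4*, lower. At 1 FPKM or more in both libraries, 7 of 9 were higher. *Bmp4* was at 0.140 and 8.73 FPKM, and the targets *Id3* and *Id2* at 20.8 and 10.4 in wild-type and 50.9 and 26.01 in *Suz12delta* cells. *Tgfbi*, an extracellular protein that TGF-beta induces, was at 0.343 and 32.7 FPKM. Of 25 Wnt members, 16 were past 2-fold higher and 3 lower. At 1 FPKM or more in both libraries, 3 of 11 were higher and 2 lower. Higher were *Rspo1*, which strengthens Wnt signals, at 0.0301 and 7.91 FPKM, and the ligand genes *Wnt11* (0.0314 and 4.28) and *Wnt6* (0.0828 and 3.46). The general target *Axin2* was within 2-fold at 7.43 and 7.86 FPKM, and *Wnt7a*, a ligand gene of neural tissue, was lower at 4.95 and 0.788. Of 17 FGF members, 10 were past 2-fold higher and 3 lower. At 1 FPKM or more in both libraries, 3 of 9 were higher and 2 lower. The feedback target *Etv4* was at 0.340 and 13.6 FPKM and the receptor gene *Fgfr3* at 33.8 and 6.35.

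Pluripotency genes were low in both day 5 libraries beside ESCs. Of 19 members, 13 were past 2-fold higher in *Suz12delta* cells and none lower, with a median of 3.02, or 1.36 with a pseudocount of 1. None of the 6 members at 1 FPKM or more in both libraries was past 2-fold. *Pou5f1*, which encodes OCT4, is a member with a ratio of 2.47. *Zfp42* was at 0.143 FPKM in wild-type and 3.55 in *Suz12delta* day 5 cells, against 113 and 29.2 in their ESCs. *Tbx3*, the member with the highest ratio, was at 0.0815 and 14.5 FPKM at day 5 and acts in several other tissues too. Over the list, the summed level was 61.2 FPKM in wild-type and 109.7 in *Suz12delta* day 5 cells and 2293 and 1017 FPKM in the ESCs. With a minimum of 5 FPKM in either library, the median of the list was 0.54 and 2 of its members were past 2-fold higher.

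**Figure D4:**
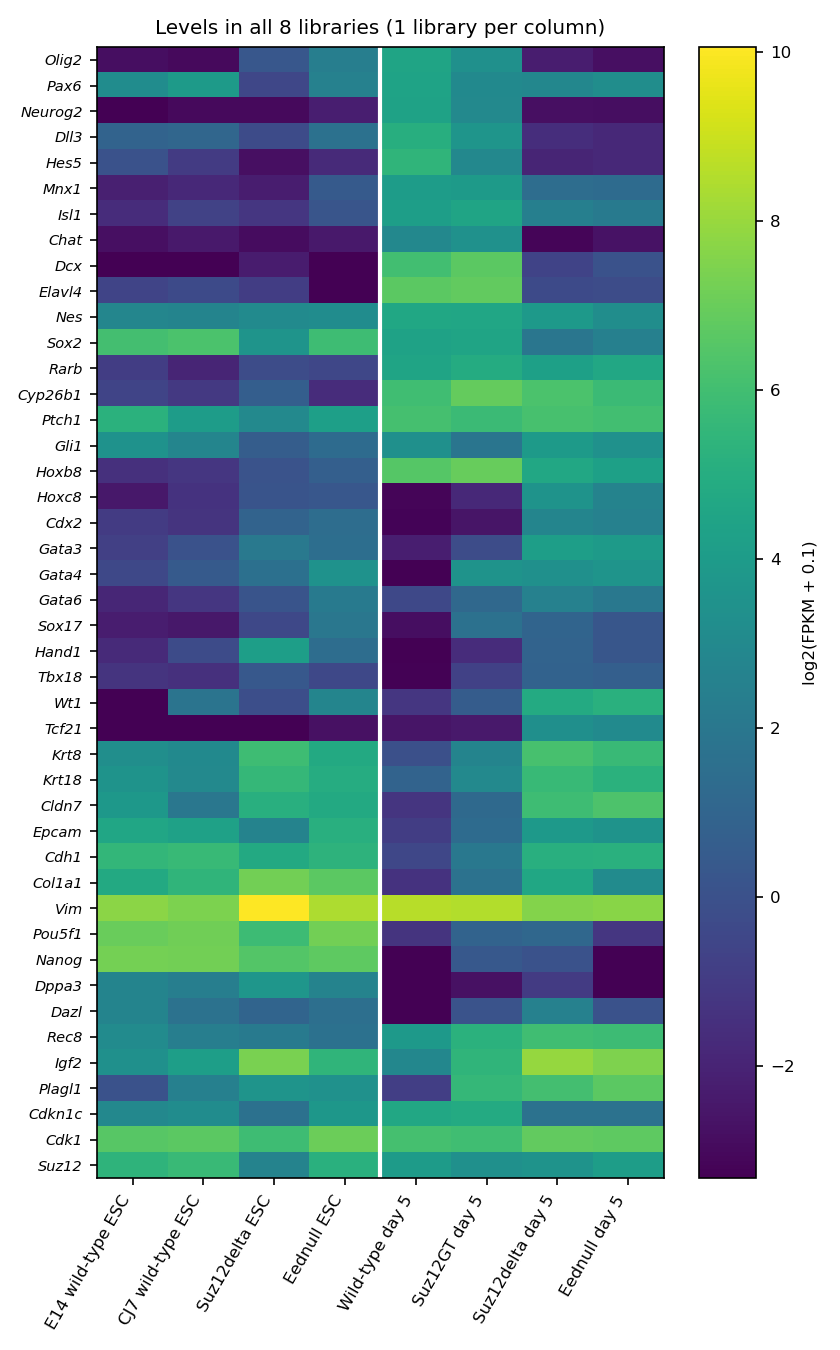
log2 of FPKM plus 0.1 of genes described in the text (rows) in all 8 libraries (columns, 1 library each; a white line parts ESCs from day 5). *Olig2* to *Elavl4*, with the exception of *Pax6*, are higher in the wild-type and *Suz12GT* day 5 columns than in the *Suz12delta* and *Eednull* columns, while *Gata3*, *Wt1*, *Tcf21* and *Krt8* to *Cdh1* are lower there, and *Gata4* is low in the wild-type column alone among the day 5 columns.

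Germline and meiosis genes had 16 members, of which 13 were past 2-fold higher and none lower, and 2 of 5 at 1 FPKM or more in both libraries, *Stra8* and *Rec8*, were higher. *Stra8*, a retinoic acid target that germ cells need to enter meiosis, was at 2.17 FPKM in wild-type and 56.8 in *Suz12delta* cells. *Rec8*, a cohesin subunit of meiosis, was at 14.7 and 63.1 FPKM. In ESCs they were between 3.63 and 8.80 FPKM in the E14 and *Suz12delta* lines, so both were above their ESC value in *Suz12delta* day 5 cells. *Dazl*, an RNA-binding protein of germ cells, was listed at 0 in wild-type and at 5.72 FPKM in *Suz12delta* cells. *Piwil2* was at 0.0792 and 2.46 FPKM. In *Eednull* cells *Stra8* and *Piwil2* were at 20.4 and 0.452 FPKM.

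Imprinted genes, which are expressed from the allele of a single parent, were divided. Of 28 members, 16 were past 2-fold higher and 3 lower, and 10 of 21 at 1 FPKM or more in both libraries were higher. The paternally expressed growth genes *Igf2*, *Mest* and *Plagl1* were at 7.11, 6.74 and 0.468 FPKM in wild-type and at 246, 412 and 66.7 in *Suz12delta* cells. *Dlk1* was at 41.1 and 584 FPKM. The growth inhibitors *Grb10* and *Cdkn1c* were lower, with *Grb10* at 239.9 and 10.6 FPKM and *Cdkn1c* at 26.1 and 3.23. *Igf2r*, a receptor gene that is expressed from the maternal allele and clears IGF2, was at 12.8 FPKM in wild-type, 46.2 in *Suz12delta* and 11.7 in *Eednull* cells. In *Eednull* day 5 cells *Igf2*, *Mest*, *Plagl1* and *Grb10* were at 177, 338, 101 and 8.20 FPKM, and in *Suz12GT* cells at 43.01, 38.3, 47.99 and 148. The values do not show which allele was used.

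Of the genes with the highest ratios, the *Xlr* copies had their highest values among the 8 libraries in the *Suz12delta* line. *Xlr5a*, on the X chromosome from 70352974 to 70363041, was at 21.05 FPKM in *Suz12delta* day 5 cells and 5.80 in *Suz12delta* ESCs. In the other 6 libraries it was at 0.167 FPKM or less. *Xlr3a* was at 24.5 FPKM in *Suz12delta* day 5 cells, 13.5 in *Suz12delta* ESCs, 3.37 in CJ7 ESCs and 0.459 or less in the other 5. *Xlr3*, *Xlr4* and *Xlr5* copies are near-identical, so how their reads are divided is uncertain.

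Functions shared by most cells differed less. All 25 cell cycle members were within 2-fold, with a median of 0.36 beside 0.23 over all members, though 1 was past 2-fold higher after scaling to the same total. *Cdk1* was at 70.3 and 113 FPKM and *Pcna*, the sliding clamp of replication, at 158 and 124. The inhibitors of the cycle differed more: *Cdkn2a* and *Cdkn2b*, neighbouring genes that PRC2 is known to silence, were at 3.11 and 0.208 FPKM in wild-type and 60.9 and 10.8 in *Suz12delta* cells. *Cdkn1c*, named above, went the other way. Of 77 ribosomal protein members, 73 were within 2-fold and 4 higher. *Rpl10l* and *Rpl39l*, copies used in testis, were among the 4, with *Rpl10l* at 0.0755 and 8.35 FPKM. The 4 members with the highest level were *mt-Co3*, *mt-Co1*, *mt-Co2* and *Eef1a1*, with ratios between -0.39 and 0.30.

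PRC2 itself was within 2-fold for 9 of 11 subunit and accessory genes. *Ezh2* was at 98.2 and 74.3 FPKM and *Eed* at 11.1 and 15.9. The 2 past 2-fold higher were *Rbbp7*, a histone-binding subunit, at 65.95 and 154 FPKM and *Phf19* at 0.453 and 2.76. Of 19 PRC1 members, 15 were within 2-fold, with *Rybp* higher at 12.6 and 35.7 FPKM and *Cbx7* lower at 18.8 and 8.51. The DNA methyltransferase genes *Dnmt3a* and *Dnmt3b* were past 2-fold higher at 27.1 and 7.74 FPKM, from 12.1 and 3.58 in wild-type cells, but 0 of the 8 DNA methylation members were past 2-fold after scaling to the 75th percentile. *Dnmt1* was within 2-fold.

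Glycolysis and hypoxia genes were lower in part. Of 24 members, 9 were past 2-fold lower and 2 higher, with a median of -0.70. *Slc2a1*, the glucose transporter gene, was at 142 and 27.6 FPKM, *Bnip3*, which hypoxia induces, at 38.3 and 6.84 and *Pkm2*, the symbol the table uses for pyruvate kinase, at 471 and 219.7. In *Suz12GT* cells *Slc2a1* and *Bnip3* were at 47.8 and 11.99 FPKM, so wild-type cells were the highest of the 4 day 5 libraries for both. Of 20 sterol synthesis members, 3 were past 2-fold lower and none higher, with a median of -0.78. After scaling to the 75th percentile, 8 were past 2-fold lower. Clustered protocadherin genes, whose products give neurons distinct surfaces, had 21 members, of which 19 were past 2-fold lower and none higher, and 4 of 6 at 1 FPKM or more in both libraries. They lie close together on 1 chromosome and share sequence, so that their values are not independent and are uncertain for single genes. *Pcdhb11* was at 5.29 and 0.771 FPKM and *Pcdhga11* at 31.5 and 36.5. Of 18 interferon and antigen presentation members, 14 were past 2-fold higher, and 8 of 12 at 1 FPKM or more in both libraries, with *Ifitm1* at 1.06 and 52.7 FPKM and the transporter gene *Tap1* at 1.24 and 13.1. Voltage-gated ion channel genes (17 members) had 5 past 2-fold higher and 6 lower, or 2 higher with a pseudocount of 1. At 1 FPKM or more in both libraries, 0 of 9 were higher and 3 lower. The 5 higher ones thus became members through *Suz12delta* cells alone, which fixed their direction. Lysosomal and lipid handling genes (20 members) had 8 higher and 1, *Fabp5*, lower, and 6 of 18 at 1 FPKM or more in both libraries were higher and 1 lower. The neural crest and glial list had 6 members, 1 past 2-fold higher and 2 lower. At 1 FPKM or more in both libraries, 0 of 5 were higher and 2 lower.

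The ESC libraries of the same lines share no library with the day 5 comparison. Over 12798 members above 0 in all 4 libraries, 1530 (12%) were at least 2-fold higher in *Suz12delta* than in E14 ESCs and 2708 (21.2%) at least 2-fold lower. Of the 2625 members that were past 2-fold higher at day 5, 881 (33.6%) were also past 2-fold higher in ESCs, which is 57.6% of the set higher in ESCs. Of the 901 that were past 2-fold lower at day 5, 241 (26.7%) were also lower in ESCs, which is 8.90% of the set lower in ESCs. The median ratio in ESCs was -0.37 over these members. FPKM summed to 797748 in E14 and 389165 in *Suz12delta* ESCs, and the ESC ratios were not scaled. Members higher at day 5 were thus higher in ESCs more often than the 12% of all members, with a median ratio of 0.35 there, and lower in ESCs in 15.5%. Members lower at day 5 were lower in ESCs in 26.7% and higher in 15.6%, both above the shares of all members, and their median ratio in ESCs of -0.22 was nearer to 0 than that of all members. The 2-fold higher members had a median level of 3.13 FPKM in E14 ESCs, 0.801 in wild-type day 5, 4.37 in *Suz12delta* ESCs and 5.30 in *Suz12delta* day 5 cells. Of these 2697, 1959 (72.6%) were at 1 FPKM or more in E14 ESCs, against 87.1% of all members. For the 967 lower members these medians were 1.26, 8.97, 1.06 and 1.89 FPKM. Of these 967, 530 (54.8%) were at 1 FPKM or more in E14 ESCs, a smaller share than in the higher members. The day 5 values of both sets follow in part from how they were chosen, and the ESC values were not used in choosing them.

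**Figure D5:**
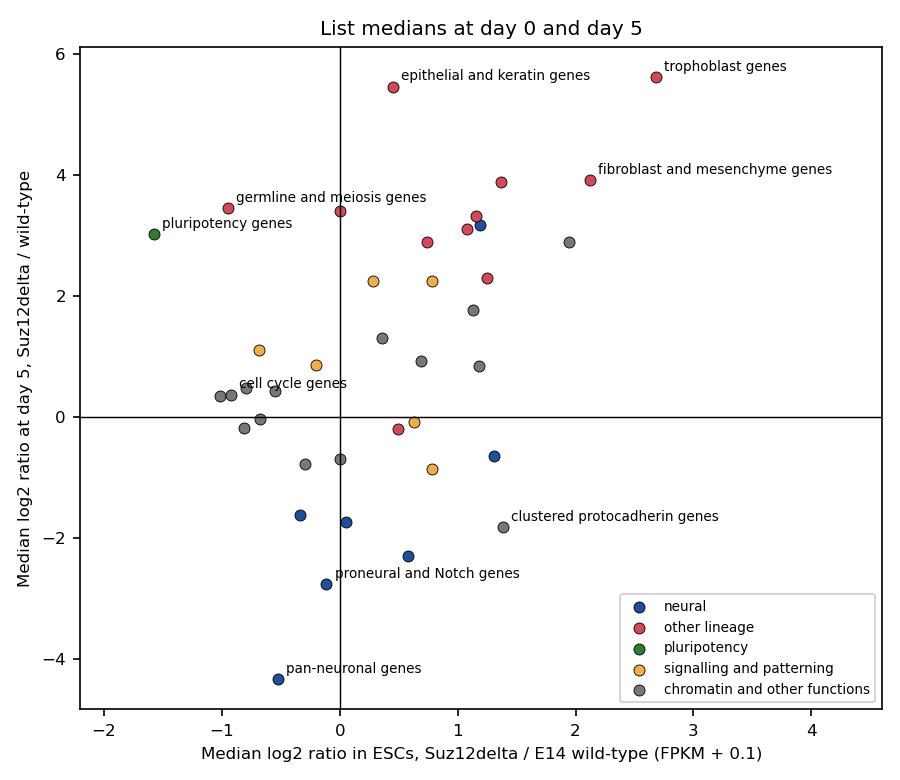
Median log2 ratio of each gene list in ESCs (horizontal, *Suz12delta* over E14) and at day 5 (vertical, *Suz12delta* over wild-type), coloured by class. Pan-neuronal genes are at -0.52 in ESCs and -4.34 at day 5, and trophoblast genes are at 2.68 and 5.61.

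By list, pan-neuronal genes had a median of -0.52 in ESCs and -4.34 at day 5, and epithelial genes 0.45 and 5.46. For both, the median in ESCs was nearer to 0 than at day 5. Fibroblast genes had medians of 2.12 and 3.91 and trophoblast genes 2.68 and 5.61, so both medians were above 0 at both times. The part of remaining MEFs in the ESC values was not tested. At 1 FPKM or more in both day 5 libraries were only 7 of the 28 fibroblast and 1 of the 10 trophoblast members. Pluripotency genes had medians of -1.58 in ESCs and 3.02 at day 5, and germline genes -0.95 and 3.45. Clustered protocadherin genes went from 1.38 in ESCs to -1.83 at day 5. Members were chosen by their day 5 levels, and differences between the times were not tested.

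Position was described last. On chromosome 6, the 611 members had a median 0.31 above that of all autosomal members at day 5 and 0.26 above it in ESCs. The 461 X-linked members were 0.15 above it at day 5 and 0.28 in ESCs, and the other autosomes lay between -0.0846 and 0.0506 of it at day 5. Members outside chromosomes 6, X and Y held 2378 past 2-fold higher and 889 past 2-fold lower, an alternative chosen after seeing the data.

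Genes listed at 0 in 1 library are outside the members and get no fold. Of the 269, 229 were listed at 0 in wild-type cells and 40 in *Suz12delta* cells. An exact 0 can be a failed estimate on either side. *Arpc4*, an actin regulator used by most cells, was listed at 0 only in *Suz12delta* day 5 cells, while the wild-type day 5 library had it at 54.3 FPKM. *Sft2d1* was listed at 0 in wild-type day 5 cells and *Eednull* ESCs. It was at 24.7 FPKM in E14 ESCs and at 17.6 and 20.6 in *Suz12GT* and *Suz12delta* day 5 cells. The neural genes *Dach1*, *Rbfox1*, *St18* and *Actl6b* were listed at 0 in *Suz12delta* cells and at 11.1, 12.3, 15.5 and 7.67 FPKM in wild-type cells. In *Eednull* day 5 cells these 4 were listed at 0 too. *Gpc3*, a heparan sulfate proteoglycan gene of growing embryonic tissues, was listed at 0 in wild-type day 5 and CJ7 ESC libraries and at 103 FPKM in *Suz12delta* day 5 cells.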

How the data were processed

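RNA-seq was analysed from 8 libraries, 4 of ESCs and 4 of day 5 cells. The authors aligned reads with TopHat 1.3.2 and Bowtie 0.12.7, estimated FPKM with Cufflinks 1.2.1 and Cuffdiff on an Ensembl annotation of NCBI build 37 with bias and multi-read correction, and deposited a table of FPKM per gene. No further normalization was applied. Reads per library are unknown, since whole reads could not be recovered from low values.

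Ratios were log2 of FPKM plus 0.1. With 1 library on each side no test was possible, and a gene counted as higher or lower past 2-fold. Symbols on more than 1 row (49 among members) were represented in the lists by the row with the highest sum. The members and the 41 gene lists were chosen with earlier results of these data known. Named genes were the 12 highest and lowest ratios at 10 FPKM or more, per list the 4 largest ratios, 2 highest levels and 1 against the list's direction, the PRC2 core and qPCR genes and the 4 highest members. Other list members and genes listed at 0 were named after their values were seen.

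Promoters were the 250 bases before GENCODE vM1 starts, read from the NCBI build 37 genome, which covered 97.2% of members. Chromosomes 18 and M, with 349 and 13 members, were left out. Each gene had 1 window, at its outermost annotated start, which need not be its main promoter. A RefSeq table matched 69.3% of symbols, so that the check on it is void. Alternatives were pseudocounts of 0 and 1, minimums of 0 and 5 FPKM, genes listed at 0 kept, other scalings and CJ7 as the wild-type ESC. The build 37 promoters and the counts without chromosomes 6, X and Y were added after seeing the data. Counting steps were tested on simulated data. Python 3.11.15, NumPy 2.4.6, pandas 2.3.3 and Matplotlib 3.10.9 were used. The ChIP and bisulfite data of the study were not analysed here. Values of 1 gene and the sequence of 1 promoter are not reported here.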

Additional observations from a re-analysis of the deposited data

Results flagged for a closer look

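In 9 of the genes that the naming rule gives, limited to those at 10 FPKM or more in the higher library at both times, *Suz12delta* and wild-type cells differed past 2-fold in opposite directions at day 5 and in ESCs, with 1 library at each point, and the difference between the times was not tested. *Apoe*, a lipid carrier, had a log2 ratio of 2.93 at day 5 and -1.79 in ESCs, and *Ifitm1*, a membrane protein that interferon induces, had 5.51 and -1.21. The basement membrane gene *Nid2* had 3.95 and -1.88. Of the chromatin genes, *Rbbp7* had 1.22 at day 5 and -1.30 in ESCs, and *Rybp* had 1.501 and -1.67. The ESC ratios were not scaled, while FPKM summed to 797748 in E14 and 389165 in *Suz12delta* ESCs. Their median over members was -0.37. The E14 sum is more than 2-fold the *Suz12delta* sum, so scaling to the same total would raise all ESC ratios by more than 1. The negative ESC ratios named here, none below -1.88, would then lie within 2-fold. Their lower level in *Suz12delta* ESCs thus depends on leaving the ratios unscaled.

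In the other direction, *Dpysl3*, a neuronal cytoskeletal regulator, had -3.08 at day 5 and 2.52 in ESCs, and the retinoic acid-binding protein gene *Crabp2* had -1.93 and 1.89. *Vim* had -1.04 at day 5 and 2.30 in ESCs, and *Zeb1*, a factor of mesenchyme and neural progenitors, had -1.46 and 1.39. *Cdh2*, which the rule does not give, was likewise lower at day 5 (40.9 and 14.96 FPKM in wild-type and *Suz12delta* cells) and higher in ESCs (4.27 and 16.6). Genes under the limit at either time, such as *Zfp42*, are not included. *Vim* and *Zeb1* are also expressed by MEFs, whose other genes were highest in the *Suz12delta* ESC library, and their part in these values was not tested.

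Outside the protein-coding genes, *H19*, an imprinted non-coding RNA next to *Igf2*, was at 1.92 FPKM in wild-type and 796 in *Suz12delta* day 5 cells, a log2 ratio of 8.62. In ESCs it was at 12.2 FPKM in E14 and 447 in *Suz12delta* cells. *Gm4779* was at 0.643 and 28.4 FPKM at day 5, a ratio of 5.26, and at 10.3 and 11.0 FPKM in the same ESCs.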

How the results depend on the processing

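Under the alternatives 1819 values were recomputed, of which 1577 kept, 242 moved by more than 1.5 times, 198 of them single genes. Of values past 2-fold, 0 changed sign. With no pseudocount, medians moved to 3.99 for pluripotency, 4.08 for endoderm factors, 4.05 for visceral endoderm, 5.17 for primitive streak and mesoderm, 4.05 for cardiac and 6.503 for trophoblast genes. With a pseudocount of 1 they were 1.64 for interneuron, -1.89 for proneural and Notch, -3.21 for pan-neuronal, 1.48 for BMP, 1.17 for Wnt, 1.36 for pluripotency, 1.68 for endoderm, 1.95 for visceral, 1.73 for streak, 2.23 for cardiac, 2.29 for fibroblast, 1.45 for blood, 2.95 for trophoblast, 3.70 for epithelial, 1.68 for germline, 1.52 for collagen and -3.25 for Y-linked genes. The members higher at both days were then 585, against 881. With a minimum of 5 FPKM, 1401 members were past 2-fold higher, and medians were -4.35 for proneural and Notch, 0.64 for Wnt, 0.54 for pluripotency, 4.67 for streak, 3.91 for cardiac, 4.67 for blood, 6.21 for trophoblast, -0.80 for neural crest, 2.09 for germline and -1.68 for ion channel genes, whose main median is 0.43. Fewer genes were tested there. With no minimum they were -1.59 for progenitor domain, 1.02 for interneuron, -0.75 for neural progenitor, 3.01 for streak, 2.20 for cardiac, 2.15 for collagen and -4.33 for Y-linked genes. With genes listed at 0 kept, the *Hox* median was 1.49, since posterior genes entered, against -0.87, and the visceral median was 4.07.

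Scaling to the 75th percentile moved the median of all members from 0.23 to 0.06 and gave 2383 higher and 1204 lower members (66.4% higher of those past 2-fold, against 73.6%). Scaling to the total gave a median of 0.31 and 2907 and 899 members (76.4%). After scaling to the 75th percentile, 8 sterol synthesis members were past 2-fold lower, against 3, and 0 DNA methylation members past 2-fold higher, against 2. No direction is read for lists with a median within these shifts of 0. No paired analysis was possible because each condition had 1 library. Depth in reads is unknown, so values of low genes carry a counting error that cannot be given.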
